A study of Mus musculus with 18 samples.

Results

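Gene expression in mouse livers labelled HPNWT was compared with that in livers labelled EGFP at day 2, using 6 of the 18 arrays of a study of hepsin and liver regeneration. Each group held 3 arrays, 1 per animal. All 40161 transcript clusters with a gene symbol were tested, out of 65956 clusters on the array. All animals were adult healthy male Mus musculus, and all received an adeno-associated virus (AAV). The series text describes the virus as a means to overexpress hepsin in the liver only, and EGFP (enhanced green fluorescent protein) is the label of the control group. The labels do not spell out HPNWT, do not name a promoter, serotype, dose, strain or exact age, and give no starting event for the days. The same pair of labels was sampled at day 1 and day 4, again with 3 arrays a group.

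Hepsin is a serine protease anchored in the hepatocyte membrane and encoded by Hpn. It is known to cleave and activate secreted proteins, among them hepatocyte growth factor (HGF) and macrophage-stimulating protein, and the study's title links it to signalling by the epidermal growth factor receptor (EGFR). Liver regeneration proceeds by division of mature hepatocytes. The loading of the minichromosome maintenance (MCM) helicase onto replication origins in late G1 and the S phase genes controlled by E2F transcription factors precede the genes of G2 and mitosis, while hepatocytes go on making bile acids, plasma proteins, glucose and drug-metabolising enzymes.

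Values are robust multi-array average (RMA) signals on a log2 scale, and differences are HPNWT minus EGFP on that scale, with the standard error (SE) of the limma fit. A gene was called under an adjusted p of 0.05, written below as rose or fell. The probes for Hpn gave 8.21, 8.19 and 8.16 in the HPNWT livers and 8.23, 8.31 and 8.25 in the EGFP livers. Every HPNWT liver was thus below the lowest EGFP liver. The difference of −0.08 (SE 0.12, adjusted p = 0.731) did not pass, and it was 0.22 with the negative-control covariate described next and 0.05 after quantile normalization of the whole value table. Directions below therefore rest on the labels. The 5222 negative-control probe sets had medians from 2.99 to 3.09 in the HPNWT arrays and from 3.27 to 3.55 in the EGFP arrays, with no overlap, while the medians of the 23 background probe sets ran the other way, from 2.38 to 2.58 and from 2.31 to 2.38. Their part in the results was not tested directly. When each array's negative-control median was added to the fit, 71 clusters were higher and 16 lower, and 2272 of the 2277 called clusters kept their sign. This covariate separated the day 2 groups without overlap, so that fit can hardly tell a group difference from the offset. A call lost in that fit therefore does not show that the difference came from the offset. Genes named below that passed in that fit too are said to hold with the covariate, and the other named genes did not. The 95th percentile of the negative controls averaged 6.16. A gene with a group mean under 6.16 is called dim in that group, and its difference is given without a fold. The EGFP day 2 arrays alone averaged 6.40, and genes whose EGFP mean was under that are given without a fold too.

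Across the 40161 clusters, 869 (2.16%) were higher and 1408 (3.51%) lower in HPNWT livers, with a median difference of 0.05 over all clusters. In 13771 clusters (34.3%) the 3 HPNWT and the 3 EGFP livers did not overlap, so a lack of overlap alone was common. The shares of 2.16% and 3.51% stand beside every list count below. They include the 76.5% of clusters that were dim in both groups. A filter on dim clusters kept 9049, of which 579 were higher and 1211 lower. Calls were thus more frequent among bright clusters, which matters for lists of bright genes. Higher clusters made up 38.2% of the calls, against 24% after each array was centred on its median and 68.2% after quantile normalization of the whole value table. The count of calls was 791 without EGFP replicate 2, 1028 without EGFP replicate 3, 932 without HPNWT replicate 2, 1371 without HPNWT replicate 1 and 1329 without HPNWT replicate 3, and it was 3487 without HPNWT day 4 replicate 3, which enters only through the shared estimate of the spread. The excess of falls lay outside the named genes. Of 18085 clusters of named genes 598 rose and 574 fell, and 69 of the rises and 51 of the falls were at least 2-fold. Of 14731 clusters of predicted genes 198 rose and 602 fell. Of 1339 clusters of small RNAs 3 rose and 67 fell, and of 3590 clusters with several symbols 48 rose and 147 fell. Olfactory and vomeronasal receptor genes, which hepatocytes are not known to use, gave 7 rises and 4 falls among 1739 clusters, and nearly all of those clusters (99.9%) were dim in both groups.

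**Figure D1:**
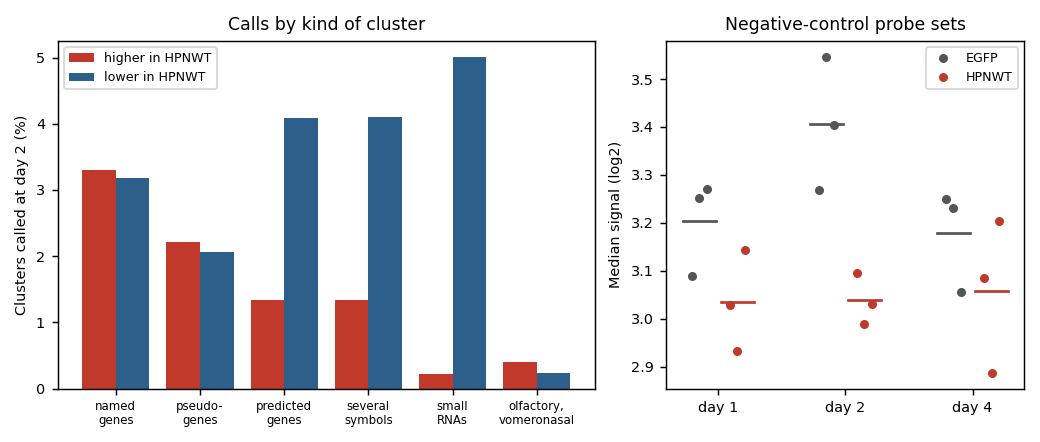
Left, the share of clusters called higher (red) or lower (blue) in HPNWT livers at day 2 for each kind of cluster, in percent of the clusters of that kind. Right, the median log2 signal of the negative-control probe sets in each array, with 3 points and their mean as a line for each group. Falls outnumber rises among predicted genes and small RNAs, rises and falls are near equal among named genes, and the day 2 HPNWT arrays (2.99 to 3.09) lie below the day 2 EGFP arrays (3.27 to 3.55).

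Several of the largest rises were in genes that were dim in control livers. Akr1c18, a hydroxysteroid dehydrogenase that inactivates progesterone, read 8.87, 8.83 and 9.26 in HPNWT livers against 3.76, 3.79 and 4.06 in EGFP livers. It was dim in every EGFP liver and bright in every HPNWT liver, a difference of 5.12 (SE 0.24, adjusted p = 1.35e-08). Cyp2b9, a cytochrome P450 that is more abundant in female mouse liver, read 7.52, 8.41 and 7.59 against 3.93, 4.35 and 4.43. The peroxisomal fatty acid transporter Abcd2 read 7.09, 7.82 and 8.0 against 4.29, 4.84 and 5.14, and the proton pump subunit Atp6v0d2 read 5.96, 6.74 and 7.07 against 3.63, 4.02 and 3.96. In each of these 3 genes every HPNWT liver lay far above every EGFP liver. The differences of Cyp2b9 (3.61, SE 0.36), Abcd2 (2.88, SE 0.35) and Atp6v0d2 (2.72, SE 0.34) had adjusted p = 3.18e-05, 1.83e-04 and 2.87e-04. Akr1c18, Cyp2b9 and Abcd2 hold with the covariate.

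Among other large rises, 3 genes varied little from one HPNWT liver to another. Ifi27l2b, of an interferon-inducible family, read 10.11, 10.12 and 10.12 against 7.37, 6.61 and 7.26, an 8.22-fold difference (adjusted p = 4.3e-06). Nid1, which encodes the basement membrane glycoprotein nidogen, read 8.26, 8.14 and 8.10 against 6.24, 6.21 and 6.28 (difference 1.92, SE 0.17, adjusted p = 1.32e-05). Klk1b4, a kallikrein of a family of near-identical genes that these probes may not separate, read 8.50, 8.50 and 8.51 against 6.47, 6.36 and 6.45 (4.21-fold). The spread of these 3 genes was small beside the gap between the groups, and they hold with the covariate, as do Tstd1, a sulfur transferase family member (4.41-fold), and Bco1, the enzyme that cleaves beta-carotene (1.80, SE 0.17). Slc10a2, a sodium-dependent bile acid transporter, read 8.99, 8.51 and 8.84 against 6.88, 6.48 and 6.25 (4.74-fold, adjusted p = 8.01e-04). Angptl8, a secreted inhibitor of lipoprotein lipase, was the most variable of this set, with 9.46, 10.64 and 10.04 against 7.0, 6.48 and 8.33 (difference 2.78, SE 0.52, adjusted p = 0.00625). The magnesium transporter Nipal1 rose by 2.21 (SE 0.44) and was dim in the EGFP livers.

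**Figure D2:**
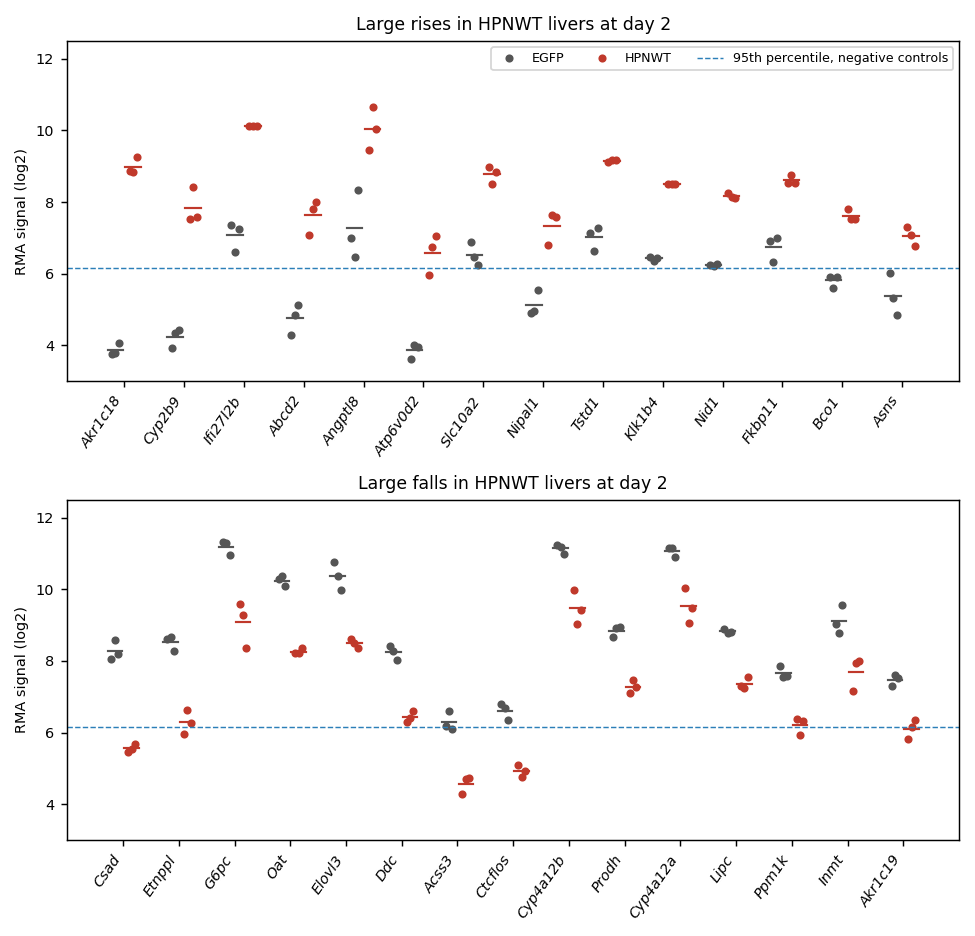
RMA signal (log2) of each day 2 liver for genes among the largest rises (top) and the largest falls (bottom) that had no overlap between groups, EGFP in grey and HPNWT in red, 3 arrays each with the mean as a short line. The dashed line is the mean 95th percentile of the negative controls (6.16). The 3 HPNWT values of Akr1c18 lie between 8.83 and 9.26 and its EGFP values between 3.76 and 4.06, while Csad lies between 5.46 and 5.68 in HPNWT and between 8.05 and 8.59 in EGFP livers.

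Most of the largest falls were in genes of enzymes. Csad, which makes hypotaurine on the way to taurine, read 5.46, 5.55 and 5.68 in HPNWT livers and 8.05, 8.59 and 8.20 in EGFP livers, a fall of 2.72 (SE 0.33, adjusted p = 1.77e-04) to a dim signal. Etnppl, which degrades phosphoethanolamine, read 5.97, 6.63 and 6.27 against 8.62, 8.66 and 8.27 (4.69-fold lower). Oat, the ornithine aminotransferase of hepatocytes around the central vein, read 8.22, 8.21 and 8.35 against 10.28, 10.36 and 10.08 (3.95-fold lower, adjusted p = 1.34e-05). The groups were far apart in all 3 genes, and Oat holds with the covariate. Ddc, the aromatic amino acid decarboxylase, was 3.5-fold lower, Prodh, which begins proline breakdown, 2.95-fold lower, and Inmt, a methyltransferase of indolamines, 2.68-fold lower. Ppm1k, the phosphatase that activates branched-chain keto acid breakdown, was 2.72-fold lower and Lipc, the hepatic lipase, 2.74-fold lower, and both hold with the covariate. The aldo-keto reductase Akr1c19 fell by 1.36 (SE 0.18), while Akr1c18 of the same family rose. The mitochondrial acyl-CoA synthetase Acss3 (−1.72, SE 0.29) and the non-coding RNA Ctcflos (−1.68, SE 0.19) fell to dim signals. G6pc, the glucose-6-phosphatase that releases glucose from the liver, read 9.60, 9.27 and 8.35 against 11.31, 11.30 and 10.96. Its HPNWT livers were widely spread, with replicate 3 the lowest, and it passed in none of the fits that left out 1 of the 6 arrays (adjusted p from 0.0570 to 0.133).

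Genes with the smallest p-values were not always those with the largest differences. Itih5, a hyaluronan-binding inhibitor family member, read 7.41, 7.52 and 7.51 against 5.91, 5.83 and 6.15 (difference 1.52, SE 0.10, adjusted p = 1.32e-06). Acsl5, a long-chain acyl-CoA synthetase, read 10.66, 10.84 and 10.75 against 9.84 in each EGFP liver (1.88-fold). St6gal1, a sialyltransferase of secreted glycoproteins, was 2.01-fold higher. Cldnd2 (1.69, SE 0.12) and the transcription factor gene Grhl1 (1.29, SE 0.10) rose with both groups dim. All 5 hold with the covariate, and none overlapped between groups.

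Replication genes rose with none falling, mostly at signals under the negative-control percentile. Over 4 lists (origin licensing, replication fork, nucleotide supply and chromatin or S phase regulators) 27 of 83 measured genes rose and 0 fell. Over all clusters 2.16% were higher and 3.51% lower. Of the 83 genes 72 were dim in both groups. In 60 of them the groups did not overlap, against 34.3% of all clusters. In the origin licensing list 5 of 16 genes rose, and these were the helicase subunits Mcm2 to Mcm6 (list median 0.14). Mcm6 read 5.50, 5.18 and 5.88 in HPNWT livers and 4.16, 4.07 and 4.12 in EGFP livers, Mcm4 read 5.33, 4.96 and 5.34 against 4.02, 4.19 and 4.11, and Mcm2 read 5.81, 5.74 and 5.97 against 4.95, 4.84 and 4.91. Mcm5 read 5.18, 5.24 and 5.77 against 4.38, 4.34 and 4.29, and Mcm3 read 5.61, 5.43 and 6.04 against 4.93, 4.83 and 4.67. HPNWT replicate 3 was the highest HPNWT liver in each of these genes, and every HPNWT liver was above every EGFP liver. Their differences ran from 0.88 (Mcm3, SE 0.16, adjusted p = 0.0048) to 1.40 (Mcm6, SE 0.13, adjusted p = 1.80e-05), with 1.06 (SE 0.16) for Mcm5. All 5 passed without any 1 of the 6 day 2 arrays, and Mcm6 and Mcm4 hold with the covariate. The loading factors were not called, with Cdc6 at 0.20 (adjusted p = 0.0603).

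At the fork, 10 of 35 genes rose (median 0.20). They included the leading-strand polymerase subunit Pole (0.45, SE 0.07), the single-strand binding protein subunit Rpa2 (0.54, SE 0.08), the small polymerase delta subunit Pold4 (0.77, SE 0.14) and the clamp loader subunit Rfc2 (0.39, SE 0.08). Among chromatin and S phase regulators 10 of 22 rose (median 0.27), including the S phase cyclin Ccne1 (0.88, SE 0.16), the chromatin assembly subunit Chaf1b (0.39, SE 0.07), the transcription factors E2f1 (0.31, SE 0.07) and E2f2 (0.42, SE 0.09), and Ung, which removes uracil from DNA (0.48, SE 0.12). Usp1, a deubiquitinase of DNA damage tolerance, was 1.28-fold higher. Among G1 genes the retinoblastoma relatives moved apart, with Rbl1 higher by 0.61 (SE 0.13) and Rbl2 lower (1.28-fold). The number of called genes with 1 of the 6 day 2 arrays left out ran from 4 to 8 in the fork list and from 2 to 6 in the regulator list, and stayed at 5 in the licensing list. Rfc2 did not pass without EGFP replicate 2 (adjusted p = 0.0639), and E2f1, E2f2, Ung, Usp1, Rbl1 and Rbl2 each missed in 3 or 4 of the 6 fits.

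Few genes of G2 and mitosis passed at day 2, though nearly all differences were positive. Of 52 measured genes 3 rose and 0 fell, against 2.16% and 3.51% of all clusters, with a median of 0.14. Positive differences stood in 50 of the 52 (62.9% of all clusters), and 41 had no overlap between groups (34.3% of all clusters). The list held 11 calls in the fit of the 6 day 2 arrays alone and 16 with array weights. With 1 day 2 array left out it held 0 to 2. With the covariate it held 0, with a median of 0.25. Of the 52 genes, 51 were dim in both groups. The 3 rises were the mitotic kinase Nek2 (0.33, SE 0.09), the spindle checkpoint gene Mad2l1 (0.40, SE 0.11) and Cks1b, a cyclin-dependent kinase subunit (0.41, SE 0.09). Nek2 passed in none of the fits without 1 day 2 array, Mad2l1 in 2 of 6 and Cks1b in 3 of 6. At day 4, 40 of the 52 were called higher with a median of 0.53. Psrc1, a spindle protein listed here with p53 targets, rose by 0.68 (SE 0.14) at day 2 and passed in all 6 such fits. Of 51 replication-dependent histone genes 1 rose and 1 fell, with a median of 0.18 and positive differences in 47. Of the 51 genes 39 were dim in both groups. That list held 10 calls in the fit of the 6 day 2 arrays alone and 0 to 1 with 1 array left out.

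**Figure D3:**
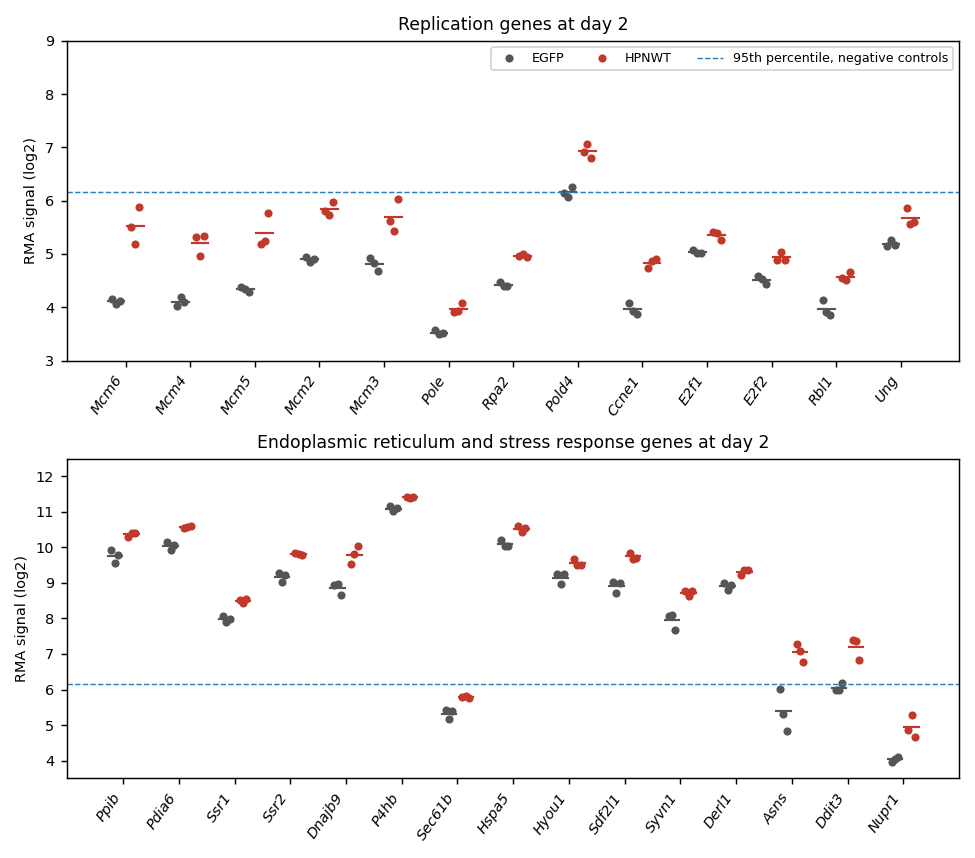
RMA signal (log2) of each day 2 liver for replication genes (top) and for genes of the endoplasmic reticulum and stress responses (bottom), EGFP in grey and HPNWT in red, with the mean as a short line. The dashed line is the negative-control percentile of 6.16. No HPNWT liver overlaps an EGFP liver in the genes drawn, as in 34.3% of all clusters. Most replication genes lie under the line in both groups, and most endoplasmic reticulum genes lie well above it.

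The promoters of Mcm6 and Mcm5 are shown because both genes rose and both hold E2F words. The sequences cover 250 bases before to 50 bases after the gene start in RefSeq on GRCm38.p6, with Mcm6 at chr1:128359656-128359955, minus strand, and Mcm5 at chr8:75109259-75109558, plus strand. Capitals mark matches to TTTCCCGC, TTTCGCGC, TTTGCCGC or TTTGGCGC on either strand, and a run longer than 8 capitals holds 2 overlapping matches.
Mcm6: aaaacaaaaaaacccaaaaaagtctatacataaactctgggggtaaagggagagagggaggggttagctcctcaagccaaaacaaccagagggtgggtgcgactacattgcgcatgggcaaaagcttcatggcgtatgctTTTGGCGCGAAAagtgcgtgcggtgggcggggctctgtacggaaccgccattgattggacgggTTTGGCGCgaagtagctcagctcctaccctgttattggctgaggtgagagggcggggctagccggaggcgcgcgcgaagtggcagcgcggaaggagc
Mcm5: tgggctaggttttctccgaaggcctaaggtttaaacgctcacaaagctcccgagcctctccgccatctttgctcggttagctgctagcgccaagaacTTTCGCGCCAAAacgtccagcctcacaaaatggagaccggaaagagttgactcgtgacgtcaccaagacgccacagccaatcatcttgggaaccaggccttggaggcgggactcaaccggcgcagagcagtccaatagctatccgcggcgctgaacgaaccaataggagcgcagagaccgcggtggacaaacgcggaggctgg
Mcm6 holds 3 matches, beginning 110, 106 and 47 bases before the start, and Mcm5 holds 2, beginning 153 and 149 bases before it. Of 83 replication genes 69 had a promoter in the RefSeq table. A match in any promoter of the gene stood in 6 of the 18 that rose and in 20 of the 51 that were not called. Counted the same way, it stood in 2.605% of all 27025 genes with a promoter, and in 2.27% of all 32851 promoters. These are 33.3% and 39.2% of the 2 sets. A match is a description of letters and not evidence of binding.

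Genes of protein folding and export in the endoplasmic reticulum rose with none falling, at high signal. Of 37 measured genes 19 rose and 0 fell, against 2.16% and 3.51% of all clusters, with a median of 0.40. Fkbp11, a prolyl isomerase of secretory cells, led with 8.54, 8.74 and 8.54 in HPNWT livers against 6.91, 6.32 and 6.99 in EGFP livers (3.65-fold), and it holds with the covariate. The isomerase Ppib read 10.29, 10.40 and 10.40 against 9.91, 9.56 and 9.78 (1.53-fold, adjusted p = 9.61e-04), and the disulfide isomerase Pdia6 read 10.55, 10.57 and 10.59 against 10.16, 9.93 and 10.06 (1.44-fold). In all 3 genes the lowest HPNWT liver was above the highest EGFP liver. The co-chaperone Dnajb9 was 1.92-fold higher, Ssr1 and Ssr2 of the translocon-associated complex 1.43-fold and 1.55-fold, and the disulfide isomerase P4hb 1.24-fold. Ssr2 and P4hb did not pass without EGFP replicate 2 (adjusted p = 0.0686 and 0.0555). The master chaperone Hspa5 read 10.61, 10.43 and 10.54 against 10.21, 10.04 and 10.03 (1.35-fold, adjusted p = 0.0229). The groups did not overlap for Hspa5, but it passed in only 2 of the 6 fits without 1 array. Sdf2l1 (1.79-fold), Hyou1 (1.33-fold) and Derl1 (1.32-fold), also chaperone or export components, and Syvn1, a ubiquitin ligase of misfolded protein disposal (1.7-fold), passed in 1, 1, 2 and 3 of them. Hspa5, Hyou1, Sdf2l1, Derl1 and Syvn1 were chosen after their values were seen. The list had between 6 and 18 called genes with 1 day 2 array left out, and 10 after median centring.

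The endoplasmic reticulum stress element, CCAAT and CCACG with 9 bases between, was found in both promoters shown next, which are of genes that rose. The windows and source are as above, with Hspa5 at chr2:34771840-34772139, plus strand, and Pdia6 at chr12:17266339-17266638, plus strand, and capitals mark the element.
Hspa5: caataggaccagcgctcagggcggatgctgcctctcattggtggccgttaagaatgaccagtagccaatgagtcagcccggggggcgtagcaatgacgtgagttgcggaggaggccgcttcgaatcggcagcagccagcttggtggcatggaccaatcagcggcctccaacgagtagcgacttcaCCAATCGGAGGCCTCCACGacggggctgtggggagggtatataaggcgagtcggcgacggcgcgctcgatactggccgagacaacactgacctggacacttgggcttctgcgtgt
Pdia6: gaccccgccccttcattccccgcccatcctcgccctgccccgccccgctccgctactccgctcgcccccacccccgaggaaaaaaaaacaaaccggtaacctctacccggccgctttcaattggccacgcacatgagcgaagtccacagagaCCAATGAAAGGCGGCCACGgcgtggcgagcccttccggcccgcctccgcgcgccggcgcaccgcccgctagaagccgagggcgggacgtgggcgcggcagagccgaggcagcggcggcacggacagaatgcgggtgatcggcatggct
The element begins 65 bases before the start in Hspa5 and 98 bases before it in Pdia6. Of the 37 listed genes 30 had a promoter in the table. The element stood in any promoter of 3 of the 14 that rose and of 6 of the 16 that were not called. Counted the same way, it stood in 0.137% of all 27025 genes with a promoter, and in 0.119% of all promoters, searched on both strands. These are 21.4% and 37.5% of the 2 sets.

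Stress response genes downstream of translation control moved in part. Of 27 integrated stress response genes 6 rose and 1 fell, with a median of 0.10 and 4 to 6 calls when 1 day 2 array was left out. Asns, the asparagine synthetase, read 7.29, 7.08 and 6.78 against 6.02, 5.31 and 4.84, and was dim in all EGFP livers. Ddit3, a transcription factor of stressed cells also called CHOP, read 7.39, 7.37 and 6.83 against 5.98, 5.99 and 6.19. The groups did not overlap in either gene, with differences of 1.66 (SE 0.35, adjusted p = 0.0113) and 1.14 (SE 0.29, adjusted p = 0.0265). Asns did not pass without EGFP replicate 2 or 3 (adjusted p up to 0.0573), and Ddit3 passed in 1 of 6 such fits. The transcription factor Atf3 (0.83, SE 0.16) and the chromatin factor Nupr1 (0.90, SE 0.13) rose with both groups dim, and so did Psph, of serine synthesis, from the one-carbon list below (0.77, SE 0.09). Eif2ak3, the kinase that senses unfolded protein, rose by 0.48 (SE 0.10). Cth, the last enzyme of the route from methionine to cysteine, was the 1 fall (1.72-fold lower). No gene of the heat shock list (14 measured), the cytosolic ribosomal proteins (50), the respiratory chain (52) or glycolysis and glycogen (30) passed. The medians of these lists were −0.11, 0.08, −0.06 and 0.08.

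**Figure D4:**
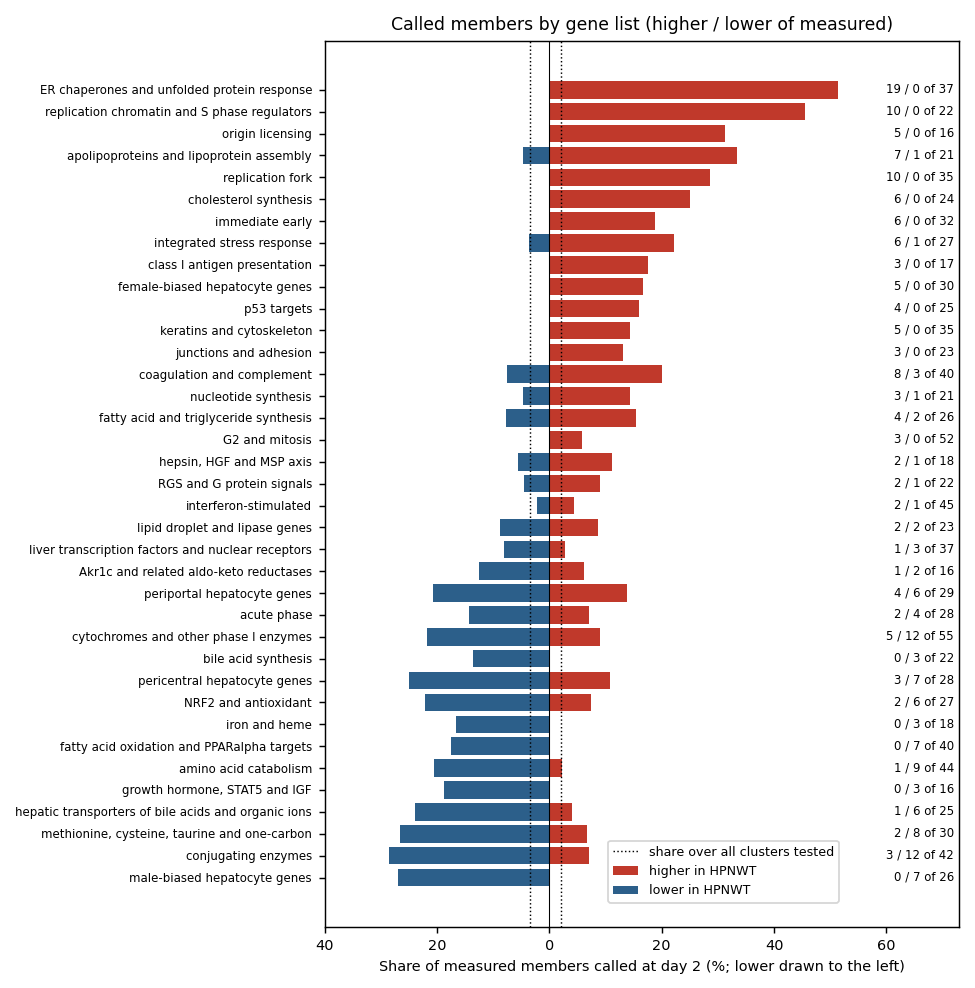
Share of the measured members of each gene list that were called higher (red, to the right) or lower (blue, to the left) at day 2, in percent, for the lists with at least 3 called members. The numbers at the right edge are members higher and lower of those measured, and the dotted lines are the shares over all clusters tested (2.16% higher, 3.51% lower). These shares include the 76.5% of clusters that were dim in both groups. Of 9049 clusters kept by a filter on dim clusters, 579 were higher and 1211 lower, so the lines lie low for lists of bright genes. The endoplasmic reticulum list (19 of 37 higher) stands at the top and the male-biased list (7 of 26 lower) at the bottom.

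In lipid metabolism, the called genes of cholesterol synthesis and most of those of lipoprotein assembly were higher, and those of fatty acid oxidation were lower. Of 24 cholesterol synthesis genes 6 rose and 0 fell, against 2.16% and 3.51% of all clusters, with a median of 0.51. Dhcr7, which forms cholesterol from its last precursor, read 7.69, 7.58 and 7.56 against 6.33, 6.73 and 6.75, and squalene epoxidase Sqle read 8.45, 8.50 and 8.54 against 6.28, 7.38 and 7.88. The EGFP livers varied far more than the HPNWT livers in Sqle, with no overlap in either gene, and the folds were 2.01 (adjusted p = 5.15e-05) and 2.49 (adjusted p = 0.00936). Dhcr7 holds with the covariate. Lanosterol synthase Lss was 1.87-fold and the decarboxylase Mvd 1.81-fold higher, but Lss passed in 2 of the 6 fits without 1 array and Mvd in none. The list held 3 to 7 calls with 1 array left out.

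Of 21 apolipoprotein and lipoprotein assembly genes 7 rose and 1 fell (median 0.10), with 4 to 7 calls when 1 day 2 array was left out. Among all clusters 2.16% were higher and 3.51% lower. Apoa4, of intestinal and hepatic lipoproteins, lay between 9.97 and 10.14 in HPNWT livers and between 8.30 and 8.51 in EGFP livers (3.07-fold, adjusted p = 0.00127). Apom, which carries sphingosine 1-phosphate, read 9.99, 9.89 and 9.79 against 8.71, 8.42 and 8.82 (2.36-fold, adjusted p = 4.52e-05). Both groups were tight and well apart, and both genes hold with the covariate. Apoc3, an inhibitor of lipase action, was 1.33-fold higher, and Apoa5, an activator of triglyceride clearance, was 1.63-fold lower (1 of 6 fits). Apoa1, the main protein of high-density lipoprotein, was 1.28-fold higher. The authors' own deposited comparison gave 1.04-fold for Apoa1, with a false discovery rate of 0.869. G6pdx, which supplies NADPH for synthesis, rose by 1.33 (SE 0.15) from a dim EGFP level and holds with the covariate. Of 26 fatty acid and triglyceride synthesis genes 4 rose and 2 fell (2 to 5 calls with 1 array left out). Acaca, the acetyl-CoA carboxylase, was 1.68-fold higher, the desaturase Scd1 1.47-fold and fatty acid synthase Fasn 1.92-fold, with HPNWT replicate 2 of Fasn (9.96) well above replicates 1 and 3 (8.86 and 8.98). The carbohydrate-responsive factor Mlxipl was 1.61-fold lower. Acaca passed in all 6 fits without 1 array, Scd1 in 4, Mlxipl in 3 and Fasn in 2. Elovl3, an elongase of very long fatty acids, read 8.62, 8.51 and 8.37 against 10.75, 10.38 and 9.97 (3.65-fold lower) and passed in 2.

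Of 40 genes of fatty acid oxidation and of the PPARalpha receptor's targets 7 fell and 0 rose, with a median of −0.15. The shares over all clusters were 3.51% lower and 2.16% higher. The aldehyde dehydrogenase Aldh3a2 read 7.87, 7.88 and 7.89 against 9.27, 8.99 and 8.92 (2.27-fold lower, adjusted p = 0.00377). Cpt2, of carnitine-dependent import, was 1.45-fold lower and the peroxisomal thiolase Acaa1b 1.63-fold lower. The list held 1 to 5 calls with 1 day 2 array left out and 0 with the covariate, where its median was −0.04. Aldh3a2 passed without any 1 array, Cpt2 in 3 and Acaa1b in 2 of the 6 fits.

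In the lists of amino acid, sulfur and bile acid metabolism more genes fell than rose. Of 44 amino acid catabolism genes, against 3.51% lower and 2.16% higher over all clusters, 9 fell and 1 rose (median −0.11). Besides Oat, Ddc and Prodh these included the tyrosine-degrading Hpd, with 10.90, 11.05 and 11.02 against 11.50, 11.47 and 11.51 (1.41-fold lower, adjusted p = 6.96e-04) and the kynurenine pathway enzymes Kynu (1.71-fold) and Afmid (1.7-fold). The 1 rise was Acmsd, which diverts tryptophan breakdown from NAD synthesis (2.63-fold higher), chosen after its values were seen, and it passed in none of the fits without 1 array. Of 30 genes of methionine, cysteine, taurine and one-carbon metabolism 8 fell and 2 rose (4 to 7 calls with 1 array left out). The falls besides Csad and Cth included Cdo1, which makes the substrate of Csad (1.24-fold lower), the glycine methyltransferase Gnmt (1.3-fold) and the folate enzyme Aldh1l1 (1.35-fold). Cdo1 passed in 0 and Gnmt and Aldh1l1 in 1 of the 6 fits without 1 array, and Afmid did not pass without HPNWT replicate 1 (adjusted p = 0.0565). Of 8 urea cycle genes 2 fell, the lyase Asl (1.42-fold) and the ornithine carrier Slc25a15 (1.28-fold), each in 1 of 6 such fits. Pck1, the key enzyme of glucose production, was at −0.63 (adjusted p = 0.0852).

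Bile acid synthesis genes gave 3 falls and 0 rises among 22, with a median of −0.29. Of all clusters 3.51% were lower and 2.16% higher, and calls were more frequent among bright clusters. Cyp27a1, which oxidises the sterol side chain, read 9.49, 9.48 and 9.36 against 10.32, 10.41 and 10.51 (1.96-fold lower, adjusted p = 1.78e-04). Akr1d1, the steroid reductase of the pathway, read 7.68, 8.22 and 8.20 against 8.75, 8.96 and 8.78 (1.74-fold lower). The peroxisomal thiolase and carrier gene Scp2 was 1.29-fold lower. All 3 passed without any 1 array. Cyp7a1, the rate-limiting enzyme of bile acid synthesis, varied widely, with 5.71, 8.08 and 7.52 against 7.98, 9.69 and 8.55, and did not pass (adjusted p = 0.197). Of 25 transporters of bile acids and organic ions 6 fell and Slc10a2 rose, with 2 to 3 calls in the list when 1 day 2 array was left out. The uptake carrier Slco1b2 read 9.09, 9.31 and 9.34 against 10.28, 10.16 and 10.30 (2-fold lower, adjusted p = 0.005), and Slco1a4 was 2.33-fold lower. The export pump Abcc2 (1.34-fold lower) passed in 0, Slco1a4 in 3 and Slco1b2 in all 6 of the fits without 1 array.

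Drug-metabolising enzymes were lower more often than higher. Of 55 phase I enzymes 12 fell and 5 rose (median −0.18), and of 42 conjugating enzymes 12 fell and 3 rose (median −0.19). For all clusters the shares were 3.51% lower and 2.16% higher. With 1 day 2 array left out the lists held 9 to 16 and 9 to 11 calls. Aldehyde oxidase Aox1 read 7.35, 7.35 and 7.36 against 8.78, 8.49 and 8.27 (2.24-fold lower), Cyp1a2 read 11.05, 10.96 and 10.98 against 11.77, 11.50 and 11.62 (1.55-fold lower), and Cyp3a25 was 1.94-fold and the carboxylesterase Ces1e 1.5-fold lower. Fmo4 (1.00, SE 0.20) rose along with Cyp2b9 and Cyp2b13. Among conjugating enzymes the glucuronosyltransferase Ugt2b1, of a family of closely similar genes, was 1.65-fold lower. The glutathione transferase Gstt1 read 9.68, 9.92 and 9.79 against 9.06, 9.10 and 9.21 and went the other way (1.6-fold higher). In none of the genes given by array did the groups overlap, which was also so for 34.3% of all clusters. Of 27 antioxidant and NRF2 genes 6 fell and 2 rose (5 to 6 calls with 1 array left out), with glutathione peroxidase Gpx1 1.41-fold and peroxiredoxin Prdx6 1.49-fold lower and glutathione synthetase Gss 1.54-fold higher. Each gene given a fold so far among these enzymes passed without any 1 day 2 array. Tpmt, a methyltransferase of thiopurine drugs chosen after its values were seen, was also higher (1.67-fold, 4 of 6 fits). Cyp2e1, which oxidises ethanol and solvents, read 11.83, 11.81 and 11.94 against 12.32, 12.31 and 12.41 (1.4-fold lower) and passed in 2.

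The called genes among those that differ between the sexes in mouse liver all fell in the male-biased list and all rose in the female-biased list. Of 26 male-biased genes 7 fell and 0 rose (median −0.17), and of 30 female-biased genes 5 rose and 0 fell (median 0.06). Over all clusters 3.51% were lower and 2.16% higher, with a median of 0.05. Differences were positive in 8 of the 26 and in 22 of the 30 genes, against 62.9% of all clusters. The male-biased list held 3 to 6 calls with 1 day 2 array left out and the female-biased list 5 in each such fit. The falls were Elovl3, Cyp4a12a, Cyp4a12b, the nudix hydrolase Nudt7, Igfals, Ugt2b1 and Ugt2b38, and the rises were Cyp2b9, Abcd2, Atp6v0d2, Cyp2b13 and Nipal1. Cyp4a12b, a fatty acid hydroxylase, read 9.98, 9.03 and 9.42 against 11.24, 11.18 and 10.99 (3.16-fold lower), and its near copy Cyp4a12a, which the probes may not separate from it, was 2.92-fold lower. Cyp2b13 read 5.15, 5.62 and 5.10 against 4.20, 4.01 and 4.30, dim in both groups. The groups did not overlap in these genes, but Cyp4a12b did not pass without HPNWT replicate 2 (adjusted p = 0.0573). Cyp4a12a passed in 1, Elovl3 in 2 and Ugt2b38 in none of the 6 fits without 1 array, and the other male-biased falls and the 5 female-biased rises passed in all. Of 16 growth hormone, STAT5 and insulin-like growth factor (IGF) genes 3 fell and 0 rose (median −0.27). Ghr, the growth hormone receptor, read 7.69, 7.83 and 7.94 against 8.44, 8.39 and 8.28 (1.47-fold lower, adjusted p = 0.00214). Igfals, which stabilises circulating IGF, was 1.8-fold lower, and Igf1 (1.54-fold lower) passed in 1 of 6 fits without 1 array. Both sex-biased lists hold genes also counted above, and all animals were male. List members were chosen with earlier results of these data known. Cyp2b9, Abcd2, Atp6v0d2 and Nipal1 were among the largest rises, and Elovl3, Cyp4a12a and Cyp4a12b among the largest falls. The counts are therefore no independent support for a shift of either list.

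For the pathways named in the title and the genes downstream of them, the lists differed in their counts. Over all clusters 2.16% were higher and 3.51% lower. Of 24 EGFR ligand, receptor and adaptor genes only the ligand gene Nrg4, which acts on the relative ErbB4, rose (0.86, SE 0.22), and it passed in 1 of the 6 fits without 1 array. Egfr itself, given because the title names it, read 11.16, 10.84 and 11.27 against 11.02, 11.37 and 11.30 (−0.14, SE 0.23, adjusted p = 0.767). The groups overlapped fully. Of 16 genes of feedback on the downstream kinase ERK 2 rose. The phosphatase Dusp5 read 6.28, 6.21 and 6.90 against 5.18, 5.20 and 5.13 (1.29, SE 0.19, adjusted p = 9.59e-04), and the transcription factor Etv5 rose by 0.54 (SE 0.12, 2 of 6 fits). Of 32 immediate early genes 6 rose and 0 fell (1 to 7 calls with 1 array left out). Egr1 read 9.10, 8.63 and 8.86 against 7.57, 7.38 and 7.79 (2.43-fold), with adjusted p = 0.00882 and 0.0516 without EGFP replicate 2. Tnfrsf12a, the receptor of the cytokine TWEAK, rose by 1.43 (SE 0.24), and Id1, a target of bone morphogenetic proteins, by 1.65 (SE 0.30), both from dim EGFP levels. Btg2, an antiproliferative gene, read 8.42, 7.66 and 7.47 against 7.09, 6.33 and 7.13 (2-fold, 3 of 6 fits), and Gadd45b, a stress sensor, rose by 0.89 (SE 0.24, 2 of 6 fits). HPNWT replicate 1 was the highest liver in both.

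In the hepsin, HGF and macrophage-stimulating protein axis 2 of 18 genes rose and 1 fell. Hgfac, the protease that activates HGF, read 10.19, 10.36 and 10.30 against 9.36, 9.40 and 9.38 (1.87-fold, adjusted p = 1.37e-04) and holds with the covariate. Mst1r, the receptor of macrophage-stimulating protein, rose by 0.50 (SE 0.12) with both groups dim. Hgf, the ligand made by stellate cells, read 5.87, 5.57 and 6.04 against 6.65, 6.49 and 6.44 (−0.70, SE 0.15, adjusted p = 0.0133). The groups did not overlap in these 3 genes. Mst1r passed in 1 of the 6 fits without 1 array, and Hgf did not pass without HPNWT replicate 2 (adjusted p = 0.0786). Met, the HGF receptor, was at −0.23 (adjusted p = 0.112). Of 19 Hippo-YAP targets none passed (median −0.02).

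The counts in this paragraph stand against 2.16% higher and 3.51% lower over all clusters. Among liver transcription factors, 1 of 37 rose and 3 fell, so rises were near that share. Foxa3 read 8.75, 8.75 and 8.77 against 7.54, 7.62 and 7.81 (2.15-fold, adjusted p = 3.23e-04) and holds with the covariate. Nfib was 1.41-fold lower. Of 40 coagulation and complement genes 8 rose and 3 fell (5 to 8 calls with 1 array left out). The protease precursor F11 read 10.34, 10.38 and 10.39 against 9.52, 9.08 and 9.32 (2.09-fold), and the plasmin inhibitor Serpinf2 read 11.49, 11.42 and 11.45 against 10.86, 10.78 and 10.86 (1.54-fold). Serpinf2 holds with the covariate, and the groups did not overlap in either gene. The lectin Mbl1 was 1.9-fold lower. Of 28 acute phase genes 2 rose and 4 fell (2 to 5 calls with 1 array left out). Amyloid P component Apcs was 2.48-fold higher, and the interleukin-1 receptor antagonist Il1rn rose by 2.08 (SE 0.29) with HPNWT replicate 1 (6.77) above replicates 2 and 3 (5.42 and 5.44). Saa1 and Saa2, near copies of serum amyloid A, were 2.62-fold and 3.01-fold lower with overlapping groups, and passed in 2 of the 6 fits without 1 array. Lbp, which binds bacterial lipopolysaccharide, was 2.07-fold lower and passed in 2 as well. Of 45 interferon-stimulated genes 2 rose and 1 fell with a median of 0.01, against 28 called higher and a median of 0.62 at day 4.

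Genes of hepatocyte zones and of the cytoskeleton moved as follows, beside 2.16% higher and 3.51% lower over all clusters. Of 28 genes of hepatocytes around the central vein 7 fell and 3 rose (median −0.25), and of 29 genes of hepatocytes around the portal vein 6 fell and 4 rose (median −0.10). The portal list held 3 to 6 calls with 1 day 2 array left out. Slc1a2, a glutamate transporter of the central zone, read 6.78, 6.62 and 6.42 against 7.78, 7.75 and 7.79 (2.25-fold lower, adjusted p = 0.00198), and the phosphatase gene Lhpp was 1.78-fold lower. The neutral amino acid transporter Slc1a4 went the other way, with 6.81, 6.49 and 6.45 against 5.44, 5.29 and 5.01 (1.34, SE 0.25). The groups were apart in each, and all 3 passed without any 1 array. Cdh1, the adhesion protein E-cadherin, was 1.69-fold higher (1 of 6 fits). Of 35 keratin and cytoskeleton genes 5 rose and 0 fell (median 0.20), with 2 to 6 calls when 1 array was left out. The tubulin gene Tubb6 read 7.57, 7.26 and 7.32 against 6.5, 6.20 and 6.42 (difference 1.01, SE 0.14, adjusted p = 7.48e-04), Tuba1b was 1.43-fold higher (3 of 6 fits), and the tropomyosin gene Tpm1 rose by 0.44 (SE 0.08) from a dim EGFP level.

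Hepatocyte markers were present at high signal and did not shift as a list. Of 18 hepatocyte markers 1 rose and 2 fell (median 0.01), none was dim in both groups, and their summed linear signal was 62297 to 64986 in HPNWT and 62104 to 65526 in EGFP livers. In bulk tissue fewer cells of a type and less RNA per cell cannot be told apart. Of 16 Kupffer cell and macrophage markers 1 rose and 1 fell, with a median of −0.31 and summed signals of 2169 to 2287 against 2245 to 2783. The macrophage perforin gene Mpeg1 read 8.60, 8.14 and 8.03 against 7.24, 6.74 and 6.56 (2.65-fold higher, adjusted p = 0.00734), whereas the iron exporter Slc40a1 was 1.56-fold lower (1 of 6 fits without 1 array) and the complement receptor Vsig4 was at −0.67 (adjusted p = 0.0617). None of 18 sinusoidal endothelial markers passed (median −0.09), yet their summed signal was 2064 to 2319 in HPNWT and 2407 to 2557 in EGFP livers, with no overlap. Summed signals were higher without overlap for 6 mesothelium markers (118 to 128 against 98.7 to 107) and 10 pancreatic acinar markers (133 to 142 against 124 to 130), all dim in both groups, with Amy2b, a pancreatic amylase gene, as the 1 call (0.33, 1 of 6 fits without 1 array). Of 11 cholangiocyte markers Sox9 alone passed (1.91-fold higher, 2 of 6 fits), and of 16 stellate cell markers 1 rose and Hgf fell. No marker of neutrophils and monocytes (14), T and NK cells (13) or B cells (9) passed, and all of these were dim in both groups. Among 8 genes kept as a check of RNA quality the nuclear RNA Neat1 alone passed, with 9.82, 8.88 and 9.54 against 10.40, 10.94 and 10.52 (2.31-fold lower, 2 of 6 fits). The part of other cell types and of RNA quality in the results above was not tested.

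Most day 2 calls pointed the same way at the other days. Day 1 gave 1194 higher (2.97%) and 649 lower (1.62%) clusters and day 4 gave 620 (1.54%) and 269 (0.67%). Of the 2277 clusters called at day 2, 2198 had the same sign at day 1 and 2166 at day 4. The same share over all clusters was not computed. Negative-control medians averaged lower in HPNWT than in EGFP arrays at day 1 (3.04 against 3.20), day 2 (3.04 against 3.41) and day 4 (3.06 against 3.18). The part of this offset in the shared signs was not tested. The call was also made in the same direction for 891 at day 1 and 541 at day 4, and for 323 at all 3 days. No cluster was called in opposite directions. Though 1168 were called at day 2 alone, the test of the difference between day 2 and day 1 called 0 clusters (0%), with 2196 at an unadjusted p under 0.05, and 387 clusters with array quality weights. The smallest adjusted p was 0.0858, for Mcm6, which stood at 0.08 at day 1 and 1.40 at day 2. Between day 2 and day 4, 2 clusters (0.00498%) differed in the limma test, Cdkn3 and Ccnb2.

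Across days the lists followed different courses. The origin licensing list had 0 calls at day 1 and 5 at both day 2 and day 4. The endoplasmic reticulum list had 22, 19 and 3 genes higher at days 1, 2 and 4, with medians of 0.52, 0.40 and 0.23, and the cholesterol list 19, 6 and 2, with medians of 1.00, 0.51 and 0.02. Ribosome biogenesis genes, higher for 15 of 52 genes at day 1, gave 0 rises and 1 fall at day 2. The median over all clusters was 0.01 at day 1 and at day 4. Egr1 stood at 2.73, 1.28 and 1.29 on the 3 days, Mcm2 at 0.47, 0.94 and 0.95, and Nupr1 at 0.10, 0.90 and 2.06. Except for Ccnb2, no gene of these lists passed a test of the difference between days.

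**Figure D5:**
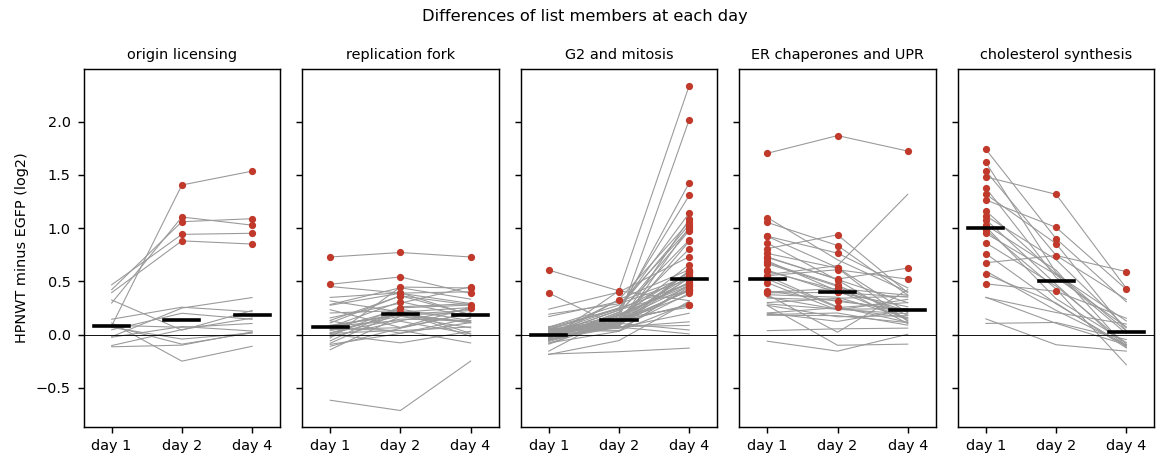
Differences HPNWT minus EGFP (log2) at day 1, day 2 and day 4 for every measured member of 5 lists, 1 grey line per gene, with red points where the gene was called at that day and black bars for the list median. In the licensing list 5 genes are called at day 2 and at day 4 and none at day 1, the G2 and mitosis median is 0.14 at day 2 and 0.53 at day 4, and the cholesterol median is 1.00, 0.51 and 0.02.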

How the data were processed

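Liver RNA was hybridised to the Affymetrix Mouse Transcriptome Array 1.0, 1 array per animal, per the labels. The deposited value table holds log2 RMA values made by the authors with Transcriptome Analysis Console software, per the labels, and its version is not given in the sources used here. It has 72688 rows, 6732 of them control probe sets. Gene symbols came from the authors' deposited day 2 comparison table, which per the file headers also holds group averages (log2), a signed fold used here as a score, a p-value and its FDR, the false discovery rate. Those averages lie on a wider scale, so they served only as an alternative.

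The 40161 clusters with a symbol were fitted with lmFit and eBayes in limma 3.58.1 (R 4.3.3), with 6 group means over 18 arrays, no further scaling and no filter. Tests were 2-sided, with Benjamini-Hochberg adjustment over all clusters. The number of arrays limits the precision. The labels give no batch and do not say whether livers were handled separately beyond 1 animal per array. Each p-value sets a group difference against the spread within the 6 groups of these samples, estimated over all 18 arrays.

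A symbol stood for its brightest single-symbol cluster (36230 symbols). Gene lists (72, with 1670 distinct measured genes) and members were chosen with earlier results of these data known, and lists are described by counts and medians only. Named are Hpn, the 15 largest non-overlapping rises and falls with a mean of at least 6.16 in the higher group, the 10 smallest p-values, up to 8 called and 4 uncalled members of each list, and the 6 smallest p-values for each difference between days. Other genes are said to be chosen after their values were seen. Predicted genes, receptors, pseudogenes and small RNAs were counted only. A few genes that the rule names are not reported here, though list counts include them. Alternatives were the arrays in the fit, scaling, centring, a filter on dim clusters, the clusters tested, array weights, a variance trend, the negative-control covariate, a replicate block, the authors' FDR and leaving out each array, and quantile normalization of the whole table and leaving out day 1 or day 4 arrays were added after seeing the data. The main fit did not pair livers by replicate number, and the labels do not say whether same-numbered livers were handled together.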

Additional observations from a re-analysis of the deposited data

Results flagged for a closer look

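The differences of 2 genes between HPNWT and EGFP livers were smaller at day 2 than at day 4 in limma's test of that difference. Cdkn3, a phosphatase of cyclin-dependent kinases, stood at 0.20 at day 2 and 1.32 at day 4, a gap of −1.12 (SE 0.13, adjusted p = 0.00739). Ccnb2, a mitotic cyclin, stood at 0.15 and 2.02, a gap of −1.87 (SE 0.26, adjusted p = 0.0449). The number of clusters past this test was 1 in most of the fits without 1 array, 1 with the negative-control covariate or with all clusters and 0 with the filter on dim clusters, so at least 1 of the 2 calls was lost there, while it was 25 without HPNWT day 4 replicate 3 and 13 without HPNWT day 4 replicate 1. Among the 25795 clusters without a gene symbol, which none of the comparisons given above used, 1773 were called at day 2 when all clusters were fitted together, 177 higher and 1596 lower in HPNWT livers.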

How the results depend on the processing

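The day 2 direction of Hpn turned with the negative-control covariate (0.22) and with quantile normalization of the whole value table (0.0538, chosen after seeing the data), and that of Egfr with the covariate (0.33) and with repeated quantile normalization of the symbol clusters (0.00401). Against 869 higher and 1408 lower clusters (2277), the 6 day 2 arrays alone gave 1650 and 2238 (3888), array quality weights 4557 and 3703 (8260), all transcript clusters 1034 and 2995 (4029), and the covariate 71 and 16 (87). Higher clusters numbered 2204 after quantile normalization of the whole table, 413 after median centring and 579 among clusters left by a filter on dim ones, where fewer were tested. Leaving out 1 array gave 313 to 1485 higher, 478 to 2002 lower and 791 to 3487 in all. For the test of day 2 against day 1, weights gave 387 and leaving out 1 array 0 to 3. For day 2 against day 4, weights gave 47, repeated quantile normalization 5, all clusters 1, the covariate 1, the dim filter 0, and leaving out 1 array 1 to 25. The causes were not tested. The replicate block gave 2643 calls. Deviations from the group means correlated at −0.06, −0.06 and 0.03 for same-numbered livers, and at −0.05 to 0.10 for the others. With 3 livers a group, these values cannot show whether same-numbered livers were handled as pairs. Of 155 called genes named, 95 passed without each of the 6 day 2 arrays and 7 in none of those fits. By the authors' FDR 145 of the 155 kept the call and its direction. The call was lost for 10, among them Apoa1, Cyp2e1, Nek2 and E2f2. Of the 83 replication genes 72, and of the 52 G2 and mitosis genes 51, lay within the negative-control range in both groups.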
